A study of Homo sapiens with 6 samples.

Results

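In the human small cell lung cancer line H82, the binding regions of the transcription factor NeuroD1 were set against the regions carrying the histone mark H3K4me3. The members were all 3854 distinct NeuroD1 regions of H82, of 61250 regions in the 4 peak lists of the series, and the yardstick was the 18208 distinct H3K4me3 regions of the same line. Each NeuroD1 region was placed in 1 of 4 classes by the number of bases between it and the nearest H3K4me3 region: overlapping it by at least 1 bp, within 1 kb without overlap, 1 to 50 kb away, or over 50 kb away. H82 and H524 are established lines grown as untreated cultures in serum-supplemented RPMI medium. Chromatin from each was immunoprecipitated with an antibody against NeuroD1 or against H3K4me3, with 1 library per antibody and line (the H3K4me3 library is titled Promoter). An input control from each line was not analysed here. The lists carry no read numbers, so depth is unknown, and with 1 library a group there is no spread between replicates and no p-value. Intervals below are exact Clopper-Pearson 95% intervals of shares, order-statistic intervals of medians, Poisson intervals of densities or Newcombe intervals of differences. They cover counting error only, and neighbouring regions are not independent.

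NeuroD1 is a basic helix-loop-helix factor of neuronal and endocrine differentiation that binds E-box DNA as a dimer with an E protein, and it marks one of the neuroendocrine subtypes of small cell lung cancer. H3K4me3 is laid down by SET1 and MLL methyltransferase complexes on the nucleosomes that flank active or poised transcription starts, while the start itself is often left nucleosome-poor. Enhancers usually carry little of this mark. Position relative to H3K4me3 therefore separates promoter-side from distal factor binding in a coarse way. Regions are named by hg19 coordinates, since a gene annotation of that build was not used here.

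NeuroD1 in H82 bound both at the promoter mark and far from it, with no class holding most regions. Of the 3854 regions, 1132 overlapped H3K4me3 (29.4%, 27.9 to 30.8), 368 lay within 1 kb (9.55%, 8.64 to 10.5), 1138 lay 1 to 50 kb away (29.5%, 28.1 to 31.0) and 1216 lay over 50 kb away (31.6%, 30.1 to 33.0). Because H3K4me3 covers little of the genome, the picture per length of sequence was different. H3K4me3 regions held 51.5 NeuroD1 centres per Mb (47.9 to 55.3), and the first 1 kb outside their edges held 24.5 per Mb (22.7 to 26.4). Density then went down to 4.12 per Mb (3.54 to 4.75) at 1 to 3 kb, 1.78 (1.57 to 2.01) at 3 to 10 kb, 1.30 (1.21 to 1.40) at 10 to 50 kb and 0.569 (0.538 to 0.602) beyond 50 kb. NeuroD1 was thus 90.4-fold denser inside H3K4me3 than over 50 kb from it. The distant zone spans 2130 Mb and includes stretches that reads may not map to, which lowers its density by an amount that was not determined. In H524, classed by its own mark, the corresponding ratio was 36.3-fold, with 166 centres per Mb (159 to 173) inside and 4.57 (4.48 to 4.67) over 50 kb away.

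Most of the decline took place within 1 kb of the edge. In steps of 250 bp, density was 48.9 per Mb (44.2 to 54.0) in the last step inside H3K4me3 and 43.6 (39.3 to 48.2) in the first step outside. It was 26.1 (22.5 to 30.1) in the second step outside, 11.7 (9.16 to 14.6) in the third and 8.63 (6.45 to 11.3) in the fourth. NeuroD1 centres thus continued into the next steps outside a called H3K4me3 region. Of the overlapping regions, 361 had their centre outside the mark. All NeuroD1 regions were at least 275 bp wide, so centres in such steps cannot show how sharp a boundary the edge is.

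**Figure D1:**
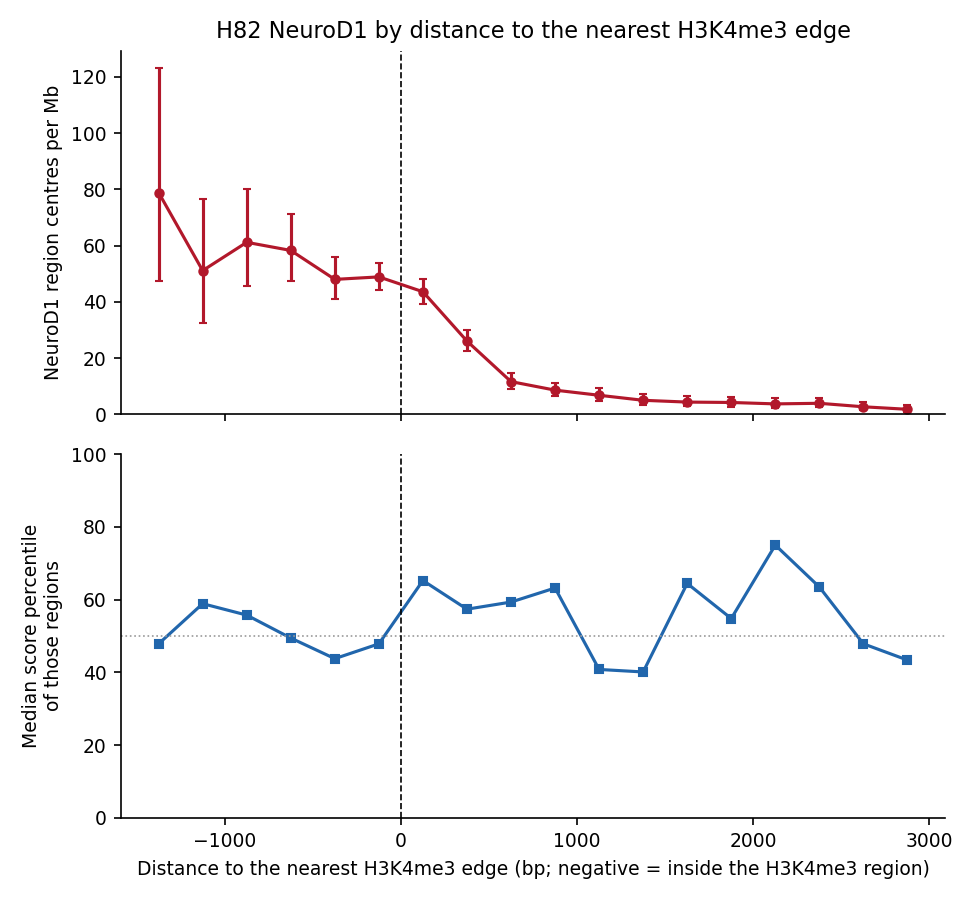
NeuroD1 regions of H82 by the distance of their centre to the nearest H3K4me3 edge, in steps of 250 bp, with negative distances inside H3K4me3. The upper panel gives centres per Mb of sequence at that distance with Poisson 95% intervals, 48.9 just inside and 43.6 just outside the edge, and the lower panel gives the median score percentile of those regions, 47.8 just inside and 65.3 just outside.

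Overlapping regions were the widest and most often had several summits. Their median width was 453 bp (441 to 469), against 395.5 bp (381 to 414) within 1 kb, 406.5 bp (397 to 419) at 1 to 50 kb and 404 bp (392 to 414) over 50 kb away. The upper quartile was 621 bp in the overlapping class and 527 bp in the farthest. Regions over 1 kb wide numbered 82 in the overlapping class (7.24%, 5.80 to 8.91), 2 within 1 kb, 36 at 1 to 50 kb and 23 over 50 kb away (1.89%, 1.20 to 2.82). Several summits were called in 5.71% of all H82 NeuroD1 regions, in 8.13% (6.60 to 9.87) of the overlapping class, 2.99% (1.50 to 5.29) of the class within 1 kb, 5.71% (4.44 to 7.22) of the class at 1 to 50 kb and 4.28% (3.21 to 5.57) of the farthest class. The most summits in 1 region were 9 in the overlapping class and 3, 4 and 5 in the others in order of distance. Width enters the overlap rule, since a wider region touches the mark more easily. In the narrowest quartile of NeuroD1 regions, 275 to 338 bp wide, 23.6% (21.0 to 26.4) overlapped H3K4me3, and in the widest quartile, from 563 bp, 38.3% (35.2 to 41.4) did. When the overlap was instead asked of the central 200 bp alone, the median width still differed between the overlapping and the farthest class, by 31 bp (13.8 to 50.8) in place of 49 bp (33.4 to 69.0).

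The strongest NeuroD1 regions lay at or beside the mark more often than the list as a whole. The authors' score was used only as a rank within the list, written as a percentile from 0 for the lowest to 100 for the highest. The list was also cut into 10 score classes, and of the 385 regions in the highest, 175 overlapped H3K4me3 (45.5%, 40.4 to 50.6), 55 lay within 1 kb (14.3%, 10.9 to 18.2), 93 lay 1 to 50 kb away (24.2%, 20.0 to 28.8) and 62 lay over 50 kb away (16.1%, 12.6 to 20.2). Regions over 50 kb away made up 29.8% to 36.0% of each of the other 9 score classes. Among the 100 highest-scoring regions, 57 overlapped the mark, 17 lay within 1 kb, 17 lay 1 to 50 kb away and 9 lay over 50 kb away. Without chromosome 8, these numbers were 52, 17, 18 and 13. Seen from the classes, 15.5% (13.4 to 17.7) of overlapping regions and 14.9% (11.5 to 19.01) of those within 1 kb were in the highest score class, compared with 8.17% (6.65 to 9.92) at 1 to 50 kb and 5.10% (3.93 to 6.49) over 50 kb away. The difference between the overlapping and the farthest class was 10.4 points (7.94 to 12.8), and that between the overlapping class and the class within 1 kb was 0.514 points (-3.96 to 4.48). Of the 771 overlapping regions with their centre inside H3K4me3, 12.2% (9.97 to 14.7) were in the highest score class. Of the 361 with their centre outside it, 22.4% (18.2 to 27.1) were.

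**Figure D2:**
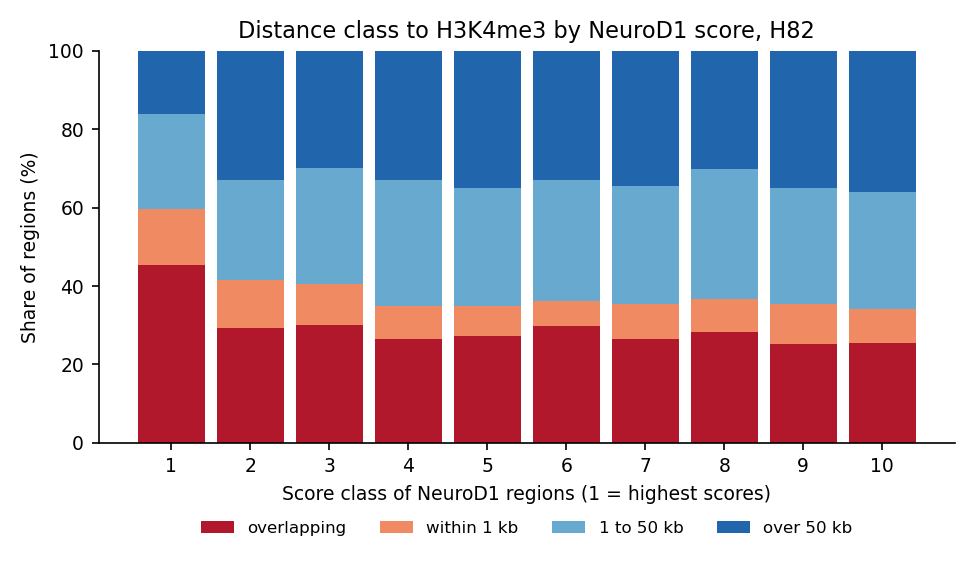
Share of each distance class among H82 NeuroD1 regions of 10 score classes, from the highest scores (1) to the lowest (10). In class 1 the overlapping regions make up 45.5% and those over 50 kb away 16.1%, and in the other 9 classes the farthest regions make up 29.8% to 36.0%.

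Medians over all scores differed less between the classes. The median percentile was 54.3 (51.3 to 56.6) for overlapping regions, 56.6 (50.2 to 62.8) within 1 kb, 47.8 (45.3 to 50.7) at 1 to 50 kb and 47.8 (42.9 to 49.1) over 50 kb away. The difference of 6.49 between the overlapping and the farthest class came down to 1.09 (-3.13 to 7.01) when the centre of the region had to lie inside H3K4me3. It was 2.05 (-1.47 to 8.20) when the central 200 bp alone were used. Among NeuroD1 regions at or above the median score it was larger, at 13.7 (7.91 to 20.2). The 1-Mb stretch of chromosome 8 that holds the 4 highest ranks had a median percentile of 92.6 over 24 regions, of which 14 overlapped H3K4me3, 1 lay within 1 kb, 9 lay 1 to 50 kb away and none lay farther. The part of DNA copy number in those ranks was not tested.

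Within the overlapping class, the score differed with where the NeuroD1 region sat on the mark. Of the 1132 regions, 653 crossed an edge of the H3K4me3 region they shared most bases with (57.7%, 54.7 to 60.6), 419 lay wholly inside it (37.0%, 34.2 to 39.9) and 60 spanned it (5.30%, 4.07 to 6.77). The wholly enclosed regions had the lowest scores, with a median percentile of 42.9 (38.9 to 49.4). The H3K4me3 regions around them had a median percentile of 88.1 in their own list and a median width of 1724 bp. Placement itself sorts these partners by width, since only a broad mark can enclose a region and only a narrow one can be spanned. Broader H3K4me3 regions also had higher scores, so the partner percentiles are bound up with placement too. Edge-crossing regions had a median percentile of 59.9 (55.2 to 64.5) on H3K4me3 regions at percentile 67.9 and 717 bp. Spanning regions reached 76.4 (65.3 to 86.1) on H3K4me3 regions at percentile 50.2 and 373 bp. Regions of the highest score class made up 8.59% (6.09 to 11.7) of the enclosed, 18.7% (15.8 to 21.9) of the edge-crossing and 28.3% (17.5 to 41.4) of the spanning regions. The edge-crossing regions exceeded the enclosed ones by 10.1 points (5.93 to 14.02).

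Placement is bound up with width, because a narrow region fits inside the mark more easily. Enclosed regions had a median width of 400 bp (386 to 415) and edge-crossing regions of 475 bp (456 to 496). Spanning regions were far wider, with a median of 871 bp (782 to 1069). Among NeuroD1 regions of the narrowest quartile the median percentiles were 36.1 for 113 enclosed and 37.8 for 118 edge-crossing regions. They were 34.9 and 47.8 in the second quartile, 40.6 and 63.6 in the third, and 62.8 and 77.5 in the widest. Of the 60 spanning regions, 52 were in the widest quartile, and their median percentile of 78.0 was close to that of edge-crossing regions of that width. The order by placement was the same in H524, a separate pair of libraries, where the median percentile was 36.5 (33.7 to 38.1) for enclosed, 48.4 (48.4 to 52.1) for edge-crossing and 67.2 (61.2 to 73.4) for spanning regions. The share in the highest score class there was 2.50% (1.64 to 3.65), 8.54% (7.36 to 9.85) and 21.4% (16.4 to 27.0). Placement in H524 was not split by width, so the part of width in its order was not tested.

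Named overlapping regions show both arrangements. The 4 highest-scoring NeuroD1 regions of the list were all on chromosome 8 and all overlapped the mark, with scores of 166, 132, 102 and 86.3 on the −log10 q-value scale. The first, chr8:128310003-128314497, was 4.50 kb wide with 8 summits and shared 3180 bp with an H3K4me3 region of rank 3. The second, chr8:128657760-128659306, with a single summit, lay wholly inside the H3K4me3 region chr8:128657288-128660152, which had rank 14 and was not found in H524. The third, chr8:128341853-128344442, lay on the left end of a broad H3K4me3 region of 8.68 kb with 19 summits. It also overlapped a further H3K4me3 region, and the mark covered 89.4% of its length in all. By contrast, the fourth, chr8:128387301-128389664, was far broader than the mark beneath it, since it spanned an H3K4me3 region of 333 bp with rank 7659.

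Outside chromosome 8, the highest-scoring overlapping regions touched the mark only in part. Among the 10 highest, 9 crossed an edge, 1 spanned its partner and 0 lay inside, and H3K4me3 covered a median of 29.0% of their length (15.3 to 65.1%, lowest and highest). All 10 were also bound in H524, where 53.6% of all H82 NeuroD1 regions and 79.5% of overlapping regions in the highest quartile of score were found. The region chr19:18302937-18304084, with rank 5 and a score of 64.5, spanned a weak H3K4me3 region of 344 bp with rank 15720. The region chr2:88926941-88927652, rank 9, shared 152 bp with an H3K4me3 region of rank 10687. It also overlapped a further H3K4me3 region, and the mark covered 27.2% of its length in all. The region chr17:79818252-79819013, rank 13, shared 271 bp with an H3K4me3 region of rank 803, and a further H3K4me3 region began 19 bp beyond its other end. This last region thus filled the space between marked segments. The region chr19:41769388-41770484, rank 14, also lay between marked segments but left more of the space free. It shared 271 bp on its left with an H3K4me3 region of rank 1667 and ended 486 bp before the next. The region chr11:63952732-63953917, rank 15, had 31.8% of its length on an H3K4me3 region of rank 12405.

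Regions within 1 kb of the mark lay close to its edge. Their median gap to H3K4me3 was 217 bp, 100 of 368 regions lay within 100 bp and 199 within 250 bp. The nearest H3K4me3 regions had a median width of 490 bp and a median percentile of 44.5, against 972 bp and 77.3 for the partners of the overlapping class. This was not particular to the class. The values were 546 bp and 43.9 at 1 to 50 kb, 566.5 bp and 48.5 over 50 kb away, and all H82 H3K4me3 regions had a median width of 563 bp. A wider mark is also overlapped more easily. H3K4me3 lay within 1 kb on both sides of 78 regions (21.2%, 17.1 to 25.7), with a median of 997 bp between the flanking marks. These 78 regions had a median percentile of 55.2 (44.2 to 68.6), and the 290 with the mark on 1 side had 56.6 (47.8 to 63.6).

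The highest-ranked regions of this class were mostly bound strongly in H524 too. The region chr3:195163720-195164270, with rank 7 and a score of 55.9, lay 67 bp from an H3K4me3 region of rank 8226, and its H524 counterpart had rank 33. The region chr15:98503496-98503936, rank 8, lay 250 bp from H3K4me3 and met rank 15 in H524. The region chr8:128642920-128643793, rank 10, lay 476 bp from H3K4me3 and met rank 5. None of these NeuroD1 regions overlapped H3K4me3 in H524 either. The regions chr17:74260981-74261390 and chr17:26368075-26368835, ranks 19 and 20, lay 767 and 570 bp from H3K4me3 and met ranks 51 and 28. The region chr14:58764654-58765436, rank 21, lay between H3K4me3 regions 32 bp to its left and 646 bp to its right, and it overlapped the mark in H524.

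From 1 to 50 kb, NeuroD1 regions were spread over the whole range, with 97 at 1 to 2 kb, 147 at 2 to 5 kb, 165 at 5 to 10 kb, 388 at 10 to 25 kb and 341 at 25 to 50 kb. The highest-scoring one was chr8:97901837-97903250, with rank 6 and a score of 62.6, which had 3 summits, lay 1.22 kb from H3K4me3 and was not found in H524. Among the regions named by score in this class and within 1 kb, it alone had no counterpart in H524. The region chr19:14317620-14318726, rank 11, lay 41.0 kb from the mark and met rank 78 in H524. The regions chr12:53773282-53773947 (rank 23), chr1:53841486-53842289 (rank 24) and chr19:6424790-6425561 (rank 26) lay 34.6, 48.1 and 31.4 kb away. The region chr16:30381910-30382626, rank 29, lay 1.36 kb away. Their nearest H3K4me3 regions were weak, with ranks between 9942 and 16939.

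Over 50 kb from the mark, the median distance was 140 kb and the upper quartile 276 kb, with 118 regions over 500 kb and 30 over 1 Mb away. The farthest was chrX:88202902-88203181, which lay 2792 kb from any H3K4me3 region and had rank 3394. The highest-scoring was chr19:10828091-10828831, with rank 16 and a score of 38.4, at 61.2 kb. In H524 the same place had NeuroD1 rank 13 and overlapped H3K4me3, so this region was distal by the mark of H82 alone. The region chr3:195441518-195442466, rank 45, at 56.8 kb was not found in H524. The regions chr12:75723892-75724385 (rank 56), chr12:14410624-14411220 (rank 67) and chr12:123582224-123582631 (rank 68) lay 121, 107 and 116 kb from the mark, and their counterparts had ranks 4359, 294 and 100. No region of chromosome 8 was among the 5 highest of this class.

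The limits between classes fell among regions of no particular rank. The smallest overlaps were 1 bp, at chr13:41345305-41345618 (rank 1554) and chr7:112579906-112580223 (rank 2398). The nearest regions without overlap directly adjoined H3K4me3, at chr2:113032997-113033352 (rank 2110) and chr22:37172153-37172605 (rank 491). Around 1 kb, gaps of 994 and 999 bp belonged to ranks 317 and 3334, and gaps of 1.001 and 1.003 kb to ranks 199 and 2837. Around 50 kb, the gaps of 49.84 and 49.97 kb inside the limit had ranks 424 and 3787, and those of 50.13 and 50.22 kb outside it had ranks 1628 and 545.

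Seen from the mark, NeuroD1 was most frequent on broad and strong H3K4me3 regions. Of all H82 H3K4me3 regions, 6.34% overlapped NeuroD1. The share was 3.54% (3.15 to 3.97) of 8129 regions up to 500 bp wide, 5.90% (5.29 to 6.55) from 500 to 1000 bp, 9.29% (8.33 to 10.3) from 1 to 2 kb, 17.7% (15.5 to 20.1) from 2 to 4 kb and 30.8% (22.3 to 40.5) of 107 regions over 4 kb. A longer region offers more room, but the density of NeuroD1 centres was also higher, with 41.9 per Mb (34.76 to 49.98) in the narrowest class, 53.2 (46.8 to 60.2) from 1 to 2 kb and 61.6 (52.9 to 71.3) from 2 to 4 kb. Over 4 kb it was 67.9 with a wide interval (48.3 to 92.8). By score, 17.5% (15.8 to 19.3) of the highest and 2.03% (1.43 to 2.79) of the lowest of 10 score classes of H3K4me3 regions overlapped NeuroD1, and their median widths were 1539.5 and 355 bp.

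**Figure D3:**
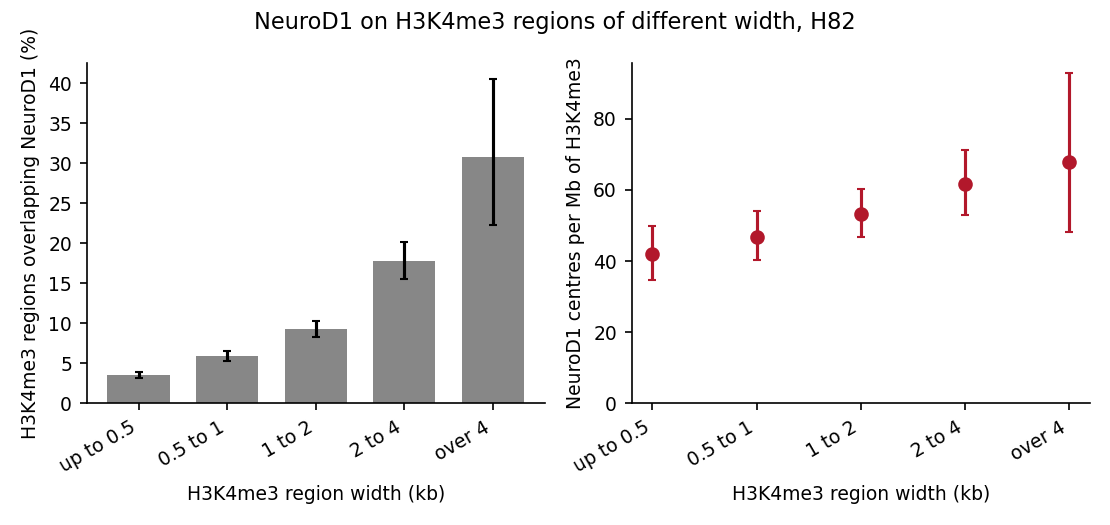
H3K4me3 regions of H82 by width. The left panel gives the share overlapping NeuroD1 with exact 95% intervals, from 3.54% up to 500 bp to 30.8% over 4 kb, and the right panel gives NeuroD1 centres per Mb of H3K4me3 with Poisson 95% intervals, from 41.9 to 67.9.

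Few H3K4me3 regions carried more than 1 NeuroD1 region. The 1132 overlapping NeuroD1 regions were assigned to 1109 H3K4me3 regions, of which 1091 held 1, 15 held 2, 2 held 3 and 1 held 5. The one with 5 was chr14:57269304-57283506, which was 14.2 kb wide with 27 summits, ranked 24 and was also marked in H524. It enclosed NeuroD1 regions of ranks 600, 637, 1016, 2445 and 3017, all of them found in H524. Its NeuroD1 regions lay between 57273063 and 57280945.

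NeuroD1 regions over 50 kb from the mark were the most solitary. A cluster was taken as at least 2 NeuroD1 regions in a chain of short gaps, the largest gap joined being 12.481 kb and the smallest left unjoined 12.513 kb. Of all NeuroD1 regions, 21.4% were in such clusters, namely 823 regions in 353 clusters. The share was 23.9% (21.4 to 26.4) in the overlapping class, 23.6% (19.4 to 28.3) within 1 kb, 27.6% (25.01 to 30.29) at 1 to 50 kb and 152 of 1216 (interval 10.7 to 14.5%) over 50 kb away. The overlapping class exceeded the farthest by 11.4 points (8.25 to 14.5), and the difference between the overlapping class and the class at 1 to 50 kb was -3.74 points (-7.32 to -0.144). The median distance to the nearest other NeuroD1 region was 78.2 kb (68.3 to 86.6) for overlapping regions, 83.0 kb (55.5 to 107) within 1 kb, 56.1 kb (49.2 to 65.4) at 1 to 50 kb and 184 kb (162 to 202) over 50 kb away. In H524, with its longer list, 42.5% (40.8 to 44.2) of overlapping and 41.3% (40.3 to 42.3) of the farthest regions were in clusters, a difference of 1.17 points (-0.785 to 3.13).

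Some clusters joined marked and unmarked regions, but most, 207 of 353, held regions of 1 class only (58.6%, 53.3 to 63.8). Of the 353 clusters, 274 had 2 regions, 52 had 3, 19 had 4 and 8 had 5 or more. At least 1 overlapping region was present in 171 clusters (48.4%, 43.1 to 53.8). In 121 of them, 34.3% of all clusters (29.3 to 39.5), it stood beside a region of another class. Clusters of the farthest class alone numbered 67 (18.98%, 15.02 to 23.47), and those of the class at 1 to 50 kb alone numbered 85 (24.1%, 19.7 to 28.9). Those joining these classes to each other numbered 7. Clusters join short gaps, whereas these classes cover wide ranges of distance. The majority with 1 class is therefore partly set by the definitions.

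The largest clusters lay on chromosomes 13, 14, 17, 8 and 3. The one with 7 regions, chr13:25738692-25767759, had 6 on H3K4me3 and spanned 29.1 kb, but its best rank was 282 and 3 of its regions were found in H524. Chromosome 14 had 3 of the 8 clusters with 5 or more regions, all between positions 56581594 and 57280945. These were chr14:57197114-57227561 with 6 regions, 3 of them overlapping and the best of rank 88, chr14:56581594-56606173 with 5 regions and best rank 30, and the 5 regions on the single H3K4me3 region described above. On chromosome 17, the 5 regions of chr17:7738623-7748136 all overlapped H3K4me3 within 9.51 kb, whereas the 5 of chr17:46075202-46089843 all lay 1 to 50 kb from it. The same held for the 5 regions of chr3:122796158-122830080, whose best rank was 882. On chromosome 8, 4 of the 5 regions of chr8:128340708-128355732 overlapped the mark, and 1 of the 5 was found in H524. The largest cluster of the farthest class alone was chr1:54763725-54768727, with 4 regions in 5.00 kb, a best rank of 397 and 3 regions found in H524.

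H524 offered a measurement that the classes did not use. At least 1 bp of overlap with an H524 NeuroD1 region was seen for 53.6% of all H82 NeuroD1 regions, and the share was higher in the classes up to 1 kb from the H82 mark than in those beyond. It was 61.2% (58.3 to 64.1) for overlapping regions, 63.3% (58.2 to 68.3) within 1 kb, 50.4% (47.4 to 53.3) at 1 to 50 kb and 46.6% (43.8 to 49.5) over 50 kb away. The overlapping class exceeded the farthest by 14.6 points (10.6 to 18.5), and the class within 1 kb exceeded it by 16.7 points (10.9 to 22.2). Between 1 to 50 kb and over 50 kb the difference was 3.72 points (-0.316 to 7.75). At over 500 kb, 43 of 118 regions were found (36.4%). Within the 4 quartiles of H82 score, the overlapping class exceeded the farthest by 9.03 to 14.2 points. A hit of 1 bp is easier to meet near the mark, however. H524 NeuroD1 had 166 centres per Mb inside the H524 mark and 4.57 over 50 kb from it. That mark overlapped 46.6% of the overlapping class and 0.576% of the farthest. Overlapping regions were also wider, at a median of 453 against 404 bp. How much of the difference these account for was not tested.

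The difference was smaller against the strongest H524 regions. When that list was limited to its 3854 highest-scoring regions, the shares were 21.9% (19.5 to 24.4) for overlapping regions, 26.6% (22.2 to 31.5) within 1 kb, 22.5% (20.10 to 25.04) at 1 to 50 kb and 20.6% (18.3 to 22.9) over 50 kb away. The difference between the overlapping and the farthest class was then 1.35 points (-1.96 to 4.67). Among the regions found in the whole list, the H524 counterparts of the overlapping class had a median percentile of 70.5 (67.2 to 73.4), and those of the farthest class had 76.9 (73.4 to 79.8). Inside the overlapping class, 65.1% (61.3 to 68.7) of edge-crossing and 54.2% (49.3 to 59.0) of enclosed regions were found in H524, a difference of 10.9 points (4.90 to 16.9), which came down to 4.59 points (-3.21 to 12.8) among NeuroD1 regions at or above the median score. By quartile of width, from narrow to wide, the shares found were 55.1%, 58.9%, 69.5% and 70.1% of edge-crossing and 41.6%, 60.2%, 50% and 66.3% of enclosed regions, so the order was the opposite in the second quartile.

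**Figure D4:**
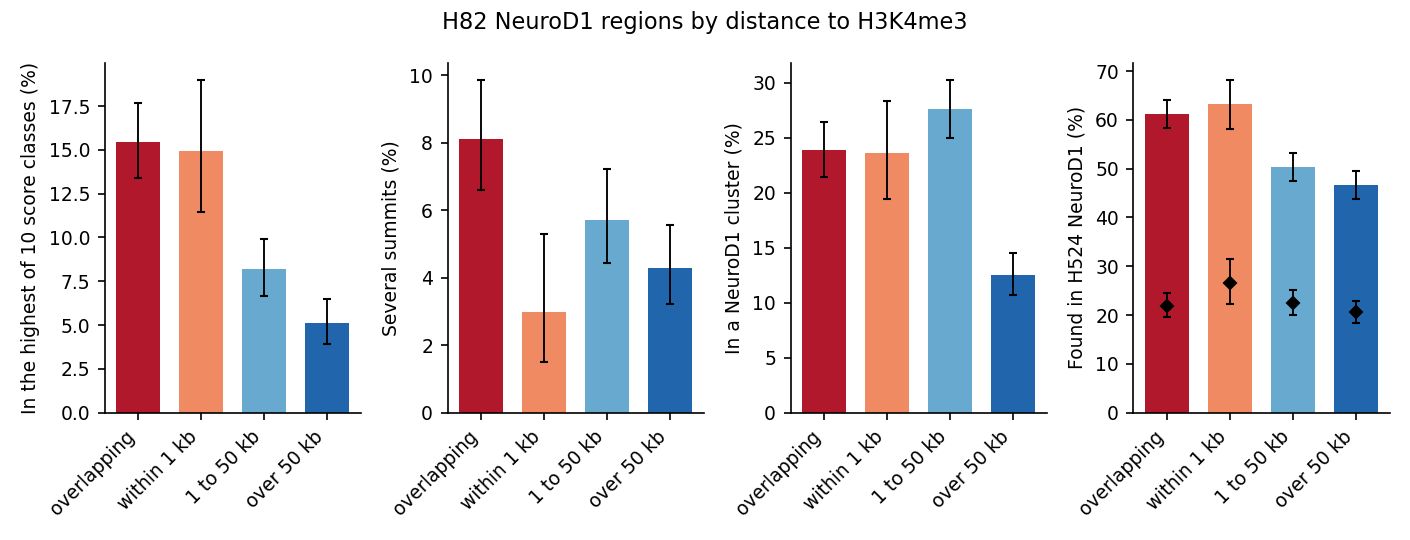
Properties of the 4 distance classes of H82 NeuroD1 regions, as shares with exact 95% intervals: in the highest of 10 score classes, with several summits, in a NeuroD1 cluster, and found in H524 NeuroD1. Bars in the last panel use the whole H524 list (61.2% to 46.6% from the overlapping to the farthest class), and black diamonds use its 3854 highest-scoring regions (21.9% to 20.6%).

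The mark of H524 at the H82 NeuroD1 regions followed the H82 classes. H3K4me3 of H524 overlapped 15.9% of all H82 NeuroD1 regions, namely 46.6% (43.6 to 49.5) of the overlapping class, 16.0% (12.4 to 20.2) of the class within 1 kb, 1.76% (1.08 to 2.70) at 1 to 50 kb and 0.576% (0.232 to 1.182) over 50 kb away. Allowing 1 kb, the shares were 68.1% (65.3 to 70.8), 57.1% (51.8 to 62.2), 5.10% (3.89 to 6.54) and 1.97% (1.27 to 2.92). Of the 368 regions within 1 kb of the H82 mark, 210 lay on the H524 mark or within 1 kb of it, with 59 on it. In the farthest class, 7 regions overlapped it in H524. Of the enclosed regions, 60.1% (55.3 to 64.9) overlapped the H524 mark, against 39.7% (35.9 to 43.5) of the edge-crossing ones. H3K4me3 partners of the overlapping class were themselves found in H524 in 61.2% of cases (58.3 to 64.1), and all H82 H3K4me3 regions in 52.4%. These partners had a median width of 972 bp, against 563 bp for all H82 H3K4me3 regions. Partners of enclosed regions were also wider than those of edge-crossing ones, at 1724 against 717 bp. A wider mark meets a 1-bp overlap more easily, and the part of width in both differences was not tested.

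Chromosomes differed widely in how NeuroD1 sat relative to the mark. On chromosome 19, 50.8% (43.4 to 58.1) of 189 NeuroD1 regions overlapped H3K4me3 and 6.35% (3.32 to 10.8) lay over 50 kb away. Chromosomes 14 and 17 followed with 39.4% (31.2 to 48.1) and 38.4% (33.0 to 44.1) overlapping, and 15.3% (9.75 to 22.5) and 13.7% (10.0 to 18.0) over 50 kb away. Chromosome 5 had 20.3% (13.5 to 28.7) overlapping and 47.5% (38.2 to 56.9) over 50 kb away. Chromosome 8, with the highest ranks, was ordinary in this respect, at 24.7% and 39.9%. The order went with the density of the mark. H3K4me3 regions numbered 17.9 per Mb on chromosome 19 and 14.5 on chromosome 17, but 4.10 on chromosome 5 and 2.95 on the X chromosome. Across the 23 chromosomes, which share libraries and differ in gene content, the overlapping share and this density had a Spearman rho of 0.787 and a Pearson r of 0.855, or 0.649 without chromosomes 17 and 19. For the share over 50 kb away they were -0.673 and -0.824, or -0.573 without those chromosomes. Where the mark is denser, any set of regions overlaps it more often and lies over 50 kb from it less often. Both relations are therefore partly set by the class definitions. Chromosome 14 had many overlapping regions for a density of 7.28 per Mb, some of them in the clusters named above and so not independent. Its interval also overlapped those of chromosomes of similar density. These were chromosome 6 (33.6%, 27.6 to 40.0, at 7.39 per Mb) and chromosome 12 (34.7%, 28.7 to 41.1, at 8.19 per Mb).

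**Figure D5:**
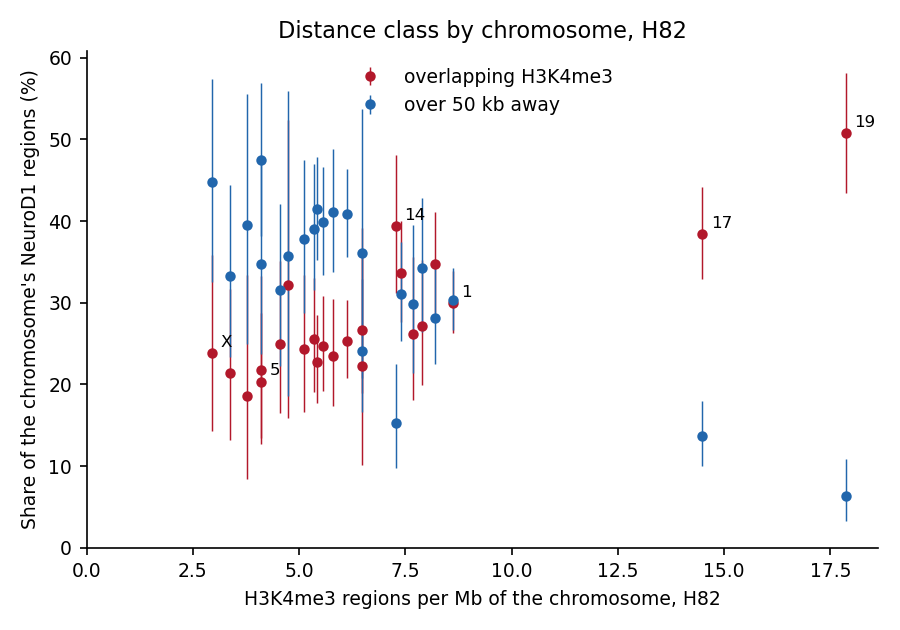
Share of each chromosome's H82 NeuroD1 regions that overlap H3K4me3 (red) or lie over 50 kb from it (blue), with exact 95% intervals, against H3K4me3 regions per Mb between the first and the last one of the chromosome. Chromosome 19, at 17.9 per Mb, has the highest overlapping share (50.8%) and the lowest share over 50 kb away (6.35%).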

How the data were processed

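Peak lists of 1 library each were used for NeuroD1 and H3K4me3 in H82, and those of H524 for comparison. The submitters' processing notes list build hg19 and the tools MACS2 2.1.1, Bowtie 1.1.2, Trimmomatic 0.38, bcl2fastq 1.8.4, Picard 1.118, SAMtools 1.9, R 3.5.1 and ChIPseeker 1.18.0, with roles, settings and any use of the input not given in the sources used here. Deposited scores were taken to be −log10 q-values (adjusted p-values) because the lowest in the lists was 1.304, just above 1.301 for 0.05. Entries with identical intervals, 1 per summit, were merged with their highest score (4137 to 3854 and 26319 to 18208 entries in H82). Equal scores shared a percentile and were ranked in position order.

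Gaps and overlaps were computed in Python 3.11.15 (numpy 2.4.6, pandas 2.3.3, scipy 1.17.1, matplotlib 3.10.9), checked against bedtools 2.31.1 and tested on simulated data. Density is the number of region centres divided by all bases at the same distance from an H3K4me3 edge, counted between the first and last H3K4me3 region of each chromosome. No test was run, since each group has 1 library. Without a matched input in peak calling, copy number and mappability would enter scores and lists, and deeper sequencing would lengthen a list.

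The classes and measures were chosen with earlier results of these data known. Placement on the mark, density by distance, H3K4me3 width classes, chromosomes and the score quartiles were added after the lists had been examined. Regions named are, per class, the 5 with the highest scores and the 5 highest outside chromosome 8, the largest clusters, H3K4me3 partners and the 2 regions on either side of each limit. The farthest region, the H3K4me3 region with the most NeuroD1 regions and the largest distal cluster were named after their values were seen. E-box content and gene context were planned, but a genome sequence and annotation in hg19 were not used here.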

Additional observations from a re-analysis of the deposited data

Results flagged for a closer look

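The score difference between NeuroD1 regions overlapping H3K4me3 and those farthest from it had opposite signs in the lines. In H82 the median score percentile of overlapping regions was 6.49 above that of regions over 50 kb from the mark, and in H524 the difference was -2.34, which is 8.84 apart. Overlapping regions also exceeded the farthest ones in the share within the highest of 10 score classes by 10.4 points in H82, against -1.82 points in H524, which is 12.2 apart. Each line has 1 library per antibody, and neither difference between the lines was tested. In H524 the intervals of both medians met at 48.4. From the overlapping to the farthest class, the H524 median percentiles were 46.1, 45.5, 53.4 and 48.4. The H524 shares in the highest score class were 7.60%, 8.95%, 12.1% and 9.42%. Neither ran in order of distance, and both were highest at 1 to 50 kb. The H82 median difference was 1.09, 0 and 2.05 under the stricter overlap rules described below, which were not applied to H524. The lists also differ in length, with 3854 regions in H82 and 20593 in H524, so the highest score class reaches a different depth in each.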

How the results depend on the processing

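The 8 main results were class shares, which have no direction to change, and differences between the overlapping and the farthest class. None of these differences changed sign under the alternatives run, although the score difference came to 0 in 1 case. The overlapping share (29.4%) was 20.0% both when the centre of the NeuroD1 region had to lie inside H3K4me3 and when at least 50% of it had to be covered, and the share within 1 kb (9.55%) was then 18.9%. Both rules gave a width difference of 22 bp in place of 49, and score differences of 1.09 (-3.13 to 7.01) and 0 (-3.83 to 6.13) percentiles in place of 6.49. With the central 200 bp these were 24.4%, 13.99%, 31 bp and 2.05 (-1.47 to 8.20). The interval of the score difference thus included 0 under each of these overlap rules. NeuroD1 regions at or above the median score gave 31.7% overlapping, 10.6% within 1 kb, 29.4% over 50 kb away (31.6% in all), 89 bp and 13.7 percentiles. H3K4me3 regions scoring at least 2 gave 27.6%, 8.54% and 35.3%, and those at or above their median gave 23.0%, 6.62%, 27.7% at 1 to 50 kb (29.5% in all) and 42.7%. Unmerged entries gave 75 bp and a difference in clustered shares of 16.2 points in place of 11.4, and clusters of at least 3 regions gave 7.24. Limits of 500 bp or 2 kb for the nearest class put 7.08% or 12.1% into it and 32.0% or 27.0% into the next. Limits of 25 or 100 kb for the farthest class left 20.7% or 40.3% below and 40.4% or 20.7% above. Limiting the H524 list to the length of the H82 list gave a difference in regions found of 1.35 points (-1.96 to 4.67) in place of 14.6. No paired analysis was possible because each group has 1 library. Unknown depth limits all shares, since weaker regions of either antibody may be unlisted.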
